A study of Rattus norvegicus with 8 samples.

Results

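The 9 genes described here carry fatty acids into muscle, store or burn them, or are classic targets of the peroxisome proliferator-activated receptors (PPARs). They were chosen by name as Fabp3, Cd36, Lpl, Slc27a1, Acsl1, Pdk4, Ucp3, Angptl4 and Plin5, and all 9 were found among the 17055 rows of a raw count table. The table holds RNA sequencing of the diaphragm, the main muscle of inspiration, from 8 Sprague-Dawley rats collected 16 weeks post-surgery. Myocardial infarction (MI) was produced in 4 animals by ligating the left anterior descending coronary artery under isoflurane, through an opened chest. The 4 Sham animals had the same anaesthesia, ventilation and opened chest without the ligation, so both groups carry the effects of a thoracotomy. Each animal gave 1 library, with replicates 1 to 4 in MI and 5 to 8 in Sham. The labels give no infarct size, sex, feeding state or time of collection.

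Muscle takes fatty acids from the blood after lipoprotein lipase, made by Lpl, frees them from circulating triglyceride at the capillary wall. The surface carrier made by Cd36 and the transport protein made by Slc27a1 bring them into the fibre, the binding protein made by Fabp3 ferries them through the cytosol, and the ligase made by Acsl1 attaches coenzyme A. The same fatty acids bind PPARs, nuclear receptors that pair with retinoid X receptors and raise transcription of genes such as Pdk4, Ucp3, Angptl4 and Plin5. Pdk4, Ucp3 and Angptl4 are also known for rising sharply in muscle during fasting.

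Library totals ran from 7941402 to 24967251 counts, so that 3 counts, taken as the floor of detection, equalled 0.120 to 0.378 counts per 1000000 (CPM). CPM values below are scaled by the trimmed mean of M-values (TMM), and all log2 fold changes are MI over Sham. Errors are the SD of 4 animals for CPM and the SE for log2 fold changes. The muscle identity of the samples was clear in every library: Acta1, skeletal alpha-actin, lay between 41243 and 52595 CPM and Ckm, muscle creatine kinase, between 25492 and 39885 CPM. Nothing in the labels says more of how animals were batched than their numbers, which fall in a lower and an upper range.

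None of the 9 genes passed the test for a difference between MI and Sham in edgeR's quasi-likelihood fit, in which 0% of 10522 tested genes were called at an adjusted p under 0.05. No member reached an unadjusted p under 0.05 either, against 8.14% of all tested genes (3.67% higher and 4.47% lower), although Fabp3 did so in 8 of 15 alternative analyses and Plin5 in 1. For none of the 9 did the groups lie apart without overlap, against 4.55% of all tested genes (2.09% with MI higher and 2.46% with MI lower). All 9 passed the filter on low counts. Their log2 fold changes ran from -0.47 for Plin5 to 0.29 for Cd36, with 4 above 0 and 5 below and a median of -0.096, beside a median of -0.0070 over all genes. What set the members apart from one another was the spread between animals of the same group. It was near that of a typical tested gene for Fabp3 and Acsl1, somewhat wider for Lpl and very wide for Pdk4, Ucp3 and Angptl4.

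**Figure D1:**
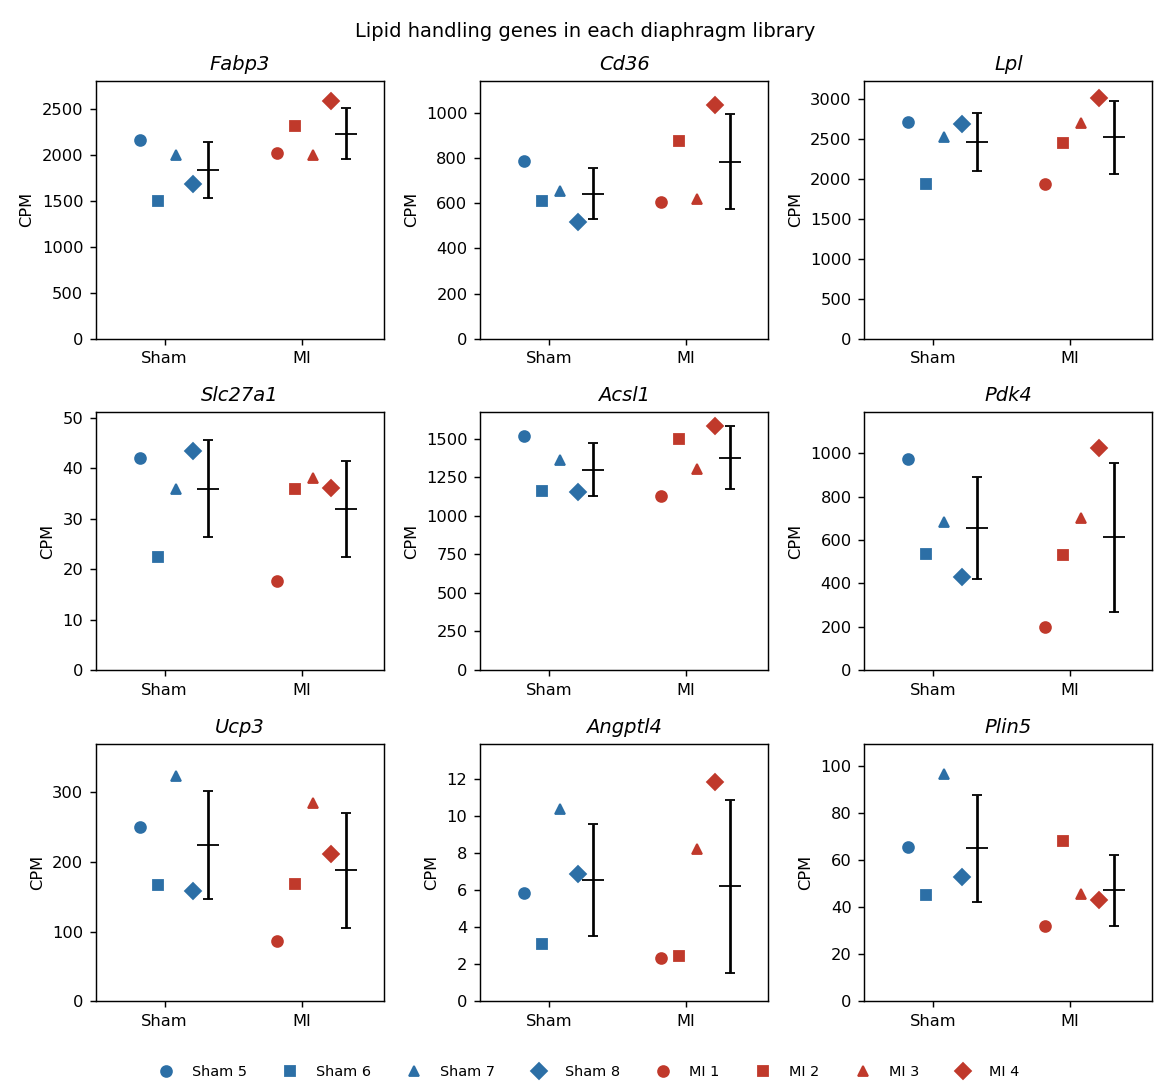
TMM-scaled CPM of each of the 9 genes (y axes, each from 0) in the 4 Sham (blue) and 4 MI (red) libraries, 1 point per animal, with the group mean and SD in black. Sham and MI points overlap for every gene, and MI replicate 1 (red circle) is the lowest of all 8 for 7 of them.

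Fabp3, the cytosolic carrier of the fibre, came nearest to a difference. In MI it was at 2023, 2323, 2009 and 2592 CPM in replicates 1 to 4. In Sham it was at 2170, 1500, 2003 and 1690 CPM in replicates 5 to 8. All 4 MI libraries lay above the Sham median, but Sham replicate 5 lay above MI replicates 1 and 3. MI averaged 2236 ± 278 CPM and Sham 1841 ± 302 CPM. This gave 0.28 ± 0.13 on the log2 scale with a 95% interval from -0.0045 to 0.57, which allowed a fold of 0.997 to 1.48. The adjusted p in edgeR was 0.610, at an unadjusted p of 0.0531. Over the alternatives the unadjusted p ran from 0.0193 without Sham replicate 5 to 0.160 without MI replicate 4, and the adjusted p from 0.519 to 0.867. Without 1 library the log2 fold change ran from 0.20 to 0.36.

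Cd36, the fatty acid translocase of the cell surface, had a log2 fold change of the same size with more spread. The MI libraries held 604.6, 875.4, 618.5 and 1036 CPM and the Sham libraries 787.7, 610.6, 654.2 and 515.9 CPM. MI replicates 2 and 4 stood above all Sham libraries, while MI replicates 1 and 3 lay among them. It came to 0.29 ± 0.19 with an interval from -0.14 to 0.72 (edgeR adjusted p = 0.690), and it was 0.12 without MI replicate 4.

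Lpl, the lipase that releases fatty acids at the capillary wall, was nearly level between groups. It was at 1932, 2446, 2692 and 3007 CPM in MI and at 2712, 1936, 2526 and 2684 CPM in Sham. The lowest MI and lowest Sham libraries were almost equal, and the other Sham values lay within the range of the other MI values. The log2 fold change of 0.03 ± 0.15 had an interval from -0.29 to 0.36 (edgeR adjusted p = 0.960), which allowed a fold of 0.816 to 1.28. Its sign turned without MI replicate 4 (-0.06) or Sham replicate 6 (-0.06).

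Acsl1, the main long-chain acyl-CoA ligase of muscle, had the smallest spread of the 9. It was at 1128, 1498, 1300 and 1580 CPM in MI and at 1514, 1162, 1363 and 1156 CPM in Sham. The highest library was 1.40 times the lowest across all 8 animals. On the log2 scale the difference was 0.08 ± 0.13 with an interval from -0.19 to 0.36 (edgeR adjusted p = 0.862), so a fold outside 0.875 to 1.28 lay beyond it.

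Slc27a1, the transport protein also called FATP1, was at 17.76, 35.87, 38.07 and 36.17 CPM in MI and at 42.15, 22.50, 36.01 and 43.40 CPM in Sham. MI replicate 1 and Sham replicate 6 were low, and the other 6 libraries lay close together. The fit gave a log2 fold change of -0.17 ± 0.28 with an interval from -0.80 to 0.46 (edgeR adjusted p = 0.872). It was 0.03 without MI replicate 1.

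Plin5, the perilipin that coats lipid droplets next to mitochondria, had the lowest log2 fold change of the 9. The MI libraries held 31.98, 68.25, 45.44 and 42.86 CPM and the Sham libraries 65.64, 45.14, 96.66 and 52.87 CPM. Of the MI libraries only replicate 2 lay above the Sham median, and Sham replicate 7 was the highest of all. MI averaged 47.1 ± 15.2 CPM and Sham 65.1 ± 22.7 CPM. This gave -0.47 ± 0.29 on the log2 scale with an interval from -1.13 to 0.19. The adjusted p in edgeR was 0.677, at an unadjusted p of 0.143. The log2 fold change was -0.22 without Sham replicate 7 and -0.71 without MI replicate 2, where the unadjusted edgeR p was 0.0284 and the adjusted p 0.452.

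The PPAR targets known to respond to fasting were widely spread in both groups. Pdk4 makes the kinase that switches off pyruvate dehydrogenase and so spares glucose. It was at 196.4, 530.3, 700.1 and 1024 CPM in MI and at 972.7, 534.7, 681.0 and 428.0 CPM in Sham. The lowest and the highest of the 8 libraries were both MI animals, 5.21-fold apart. MI averaged 613 ± 345 CPM and Sham 654 ± 236 CPM, and the log2 fold change of -0.10 ± 0.48 had an interval from -1.22 to 1.03 (edgeR adjusted p = 0.964). Its sign turned without MI replicate 1 (0.20) or Sham replicate 5 (0.15). A fold anywhere from 0.428 to 2.05 was within the interval.

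Ucp3, a mitochondrial carrier of muscle linked to fatty acid use, was at 87.05, 168.5, 284.7 and 211.7 CPM in MI. In Sham it was at 250.0, 166.9, 322.8 and 158.6 CPM. MI replicate 1 was the lowest of all and Sham replicate 7 the highest, with the rest interleaved. The log2 fold change was -0.26 ± 0.38 with an interval from -1.15 to 0.63 (edgeR adjusted p = 0.861), and it was -0.02 without MI replicate 1 and -0.04 without Sham replicate 7.

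Angptl4, a secreted inhibitor of lipoprotein lipase, was the least counted of the 9, with 35 to 269 reads in a library. It was at 2.337, 2.444, 8.207 and 11.87 CPM in MI and at 5.854, 3.086, 10.37 and 6.885 CPM in Sham. The MI animals fell into a low pair, replicates 1 and 2, and a high pair, replicates 3 and 4, with most Sham values between them. The low pair carries animal numbers of the lower range and the high pair numbers of the upper range. Sham replicate 5, also of the lower range, lay between the pairs. A part of the number range in this split was not tested. The log2 fold change was -0.15 ± 0.59 with an interval from -1.51 to 1.22 (edgeR adjusted p = 0.953). Its sign turned without MI replicate 1 (0.14), MI replicate 2 (0.13) or Sham replicate 7 (0.20), and limma-voom gave -0.55. With the animal number range in the model it was -0.08, with an interval from -1.15 to 0.998 (edgeR adjusted p = 0.985).

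**Figure D2:**
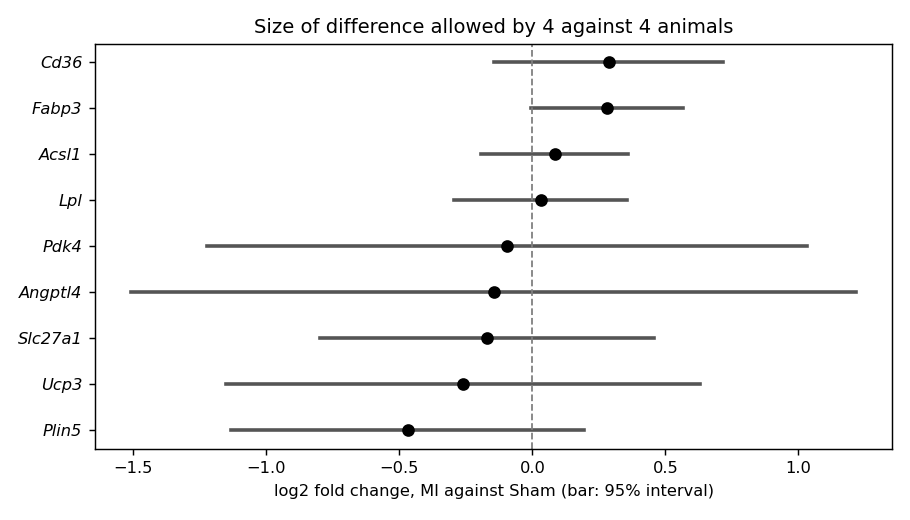
Log2 fold change of MI against Sham (x axis) for each of the 9 genes (rows, ordered by value), as a point with its 95% interval from the edgeR fit on 4 against 4 libraries. Every interval crosses 0, from the narrow one of Acsl1 (-0.19 to 0.36) to the wide one of Angptl4 (-1.51 to 1.22).

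The 250 bases before the annotated start of Ucp3 are shown because they held the only match among the members to the PPAR element. The element searched was AGGTCANAGGTCA, a pair of AGGTCA hexamers spaced by 1 base, with up to 2 mismatches on either strand. Promoter windows of 300 bases, 250 before and 50 after the start, came from RefSeq on GRCr8 and were matched by symbol for 8 of the 9 genes, all but Lpl. The Ucp3 stretch lies at chr1:164227660-164227909 on the plus strand, with the matches in capitals.
Ucp3: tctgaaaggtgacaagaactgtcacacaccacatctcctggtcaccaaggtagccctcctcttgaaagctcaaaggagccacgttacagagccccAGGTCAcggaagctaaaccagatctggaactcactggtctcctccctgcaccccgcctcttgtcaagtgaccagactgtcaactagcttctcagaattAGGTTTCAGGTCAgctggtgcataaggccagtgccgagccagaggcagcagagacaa
The longer match begins 57 bases before the start and differs from the element by C5T and A6T, where positions count from 1 at the element's 5′ end and the element's base stands first. Its last 6 bases are themselves the hexamer AGGTCA, and a further hexamer begins 155 bases before the start. An element with up to 2 mismatches was present in 3.77% of all 33469 promoter windows and a hexamer in 16.2%.

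Hexamers without a longer match were found in the windows of 2 further members, shown here to place them beside Ucp3. Each is printed with 8 flanking bases on either side and the hexamer in capitals, and that of Slc27a1 reads on the opposite strand.
Slc27a1: gtcctcatTGACCTctggctgt
Plin5: ttagtctgAGGTCAgccttggt
They begin 242 and 157 bases before the start. Fabp3, Cd36, Acsl1, Pdk4 and Angptl4 held neither word in these 300 bases, which says nothing of elements elsewhere. A match in letters is not evidence that a receptor binds there.

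The 9 genes ranged from ordinary to extreme in how much they varied between animals of the same group. The within-group SD of log2 CPM (prior count of 2) was 0.204 for Acsl1, 0.210 for Fabp3 and 0.251 for Lpl, beside a median of 0.204 over all tested genes. Cd36 was at 0.324. It was 0.462 for Plin5, 0.481 for Slc27a1 and 0.619 for Ucp3. Pdk4 reached 0.804, at the 97.7th percentile of tested genes, and Angptl4 0.965, at the 99.0th. Angptl4 rested on 35 to 269 reads a library, while the lowest count of Pdk4 was 2942 reads. The parts of counting error and of the animal number range in the spread of Angptl4 were not tested.

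Single animals stood low or high for most of the members at once. MI replicate 1 was the lowest of the 8 libraries for 7 of the 9 genes, all but Fabp3 and Cd36, whereas it was the lowest for 17.3% of all tested genes. MI replicate 4 was the highest for 6, namely Fabp3, Cd36, Lpl, Acsl1, Pdk4 and Angptl4, whereas it was the highest for 16.5% of all tested genes. Ucp3 and Plin5 peaked in Sham replicate 7, and Slc27a1 in Sham replicate 8. For Lpl, Acsl1, Pdk4 and Angptl4 the lowest and the highest of the 8 animals were thus both MI animals.

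**Figure D3:**
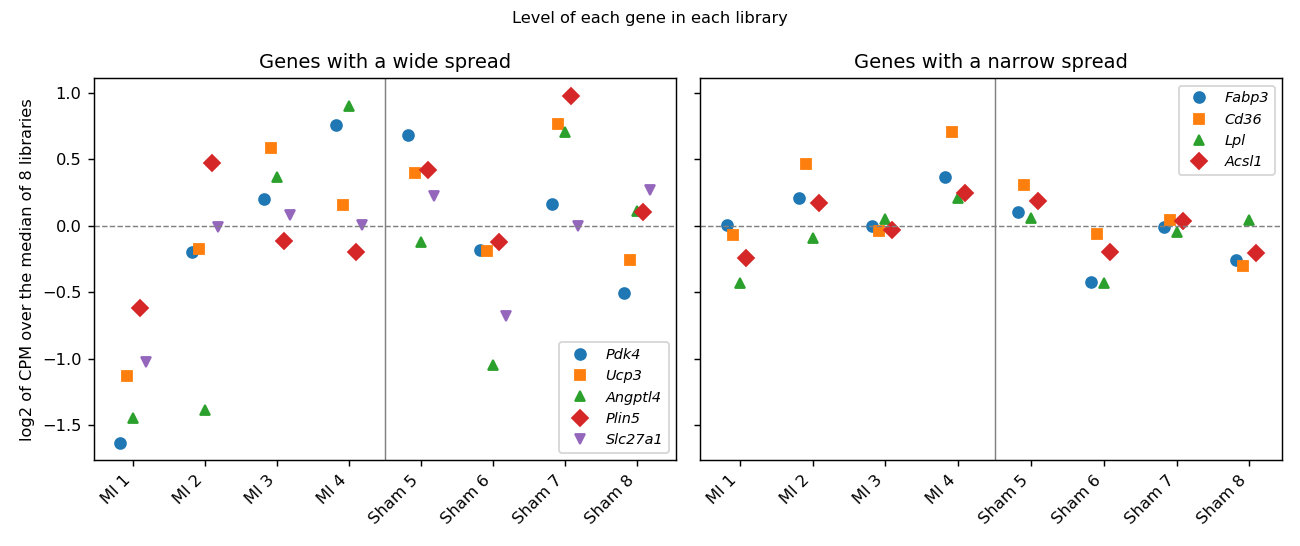
Level of each gene in each library, as the log2 ratio of its CPM to its median over the 8 libraries (y axis), for 5 genes with a wide spread (left) and 4 with a narrow one (right). MI replicate 1 lies at the bottom for every gene on the left, and the points on the right stay closer to 0.

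Over the 36 pairs, Pearson's r of log2 CPM was above 0 in all 36, from 0.10 for Fabp3 and Plin5 to 0.90 for Cd36 and Acsl1, with a median of 0.58. These values share libraries, scaling and depth. The sign was not kept by all pairs without the 2 libraries farthest from the median of the first gene named. Lpl and Plin5 went from 0.36 to -0.74 and Slc27a1 and Acsl1 from 0.57 to -0.52, while Cd36 and Acsl1 stayed at 0.85. Spearman's rho over all 8 libraries was -0.07 for Fabp3 and Plin5. At a Benjamini-Hochberg adjusted exact permutation p under 0.05, 1 pair passed, and 9 had an unadjusted p under 0.05.

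The pair that passed was Cd36 and Acsl1, the surface carrier and the ligase that acts next. Pearson's r was 0.904 (exact two-sided permutation p = 0.00112, adjusted p = 0.0402) and Spearman's rho 0.952 (permutation p = 0.00114, adjusted p = 0.0411) over 8 libraries. Without the 2 libraries farthest from the Cd36 median, r was 0.854 (exact permutation p = 0.0125), and after each group's mean was subtracted it was 0.918. With 1 library left out r stayed between 0.883 and 0.926, but the adjusted permutation p rose above 0.05 in 7 of 8 cases, up to 0.121 without MI replicate 3. It passed only where MI replicate 1 was the one left out. Neither range of animal numbers holds 6 libraries, so r is not given within them.

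Other pairs with a high r were picked after their values were seen. They joined Fabp3 with Cd36 and Acsl1, Pdk4 with Ucp3, Acsl1 and Lpl, Lpl with Slc27a1, and Angptl4 with Lpl and Ucp3. Fabp3 and Cd36 had r = 0.843 (exact permutation p = 0.00935, adjusted p = 0.0741) and rho = 0.786 (permutation p = 0.0279, adjusted p = 0.201). Without the 2 libraries farthest on Fabp3 r was 0.945 (permutation p = 0.00833), but without MI replicates 2 and 4, the farthest on Cd36, it was 0.615 (permutation p = 0.237). Fabp3 and Acsl1 had r = 0.825 (permutation p = 0.00806, adjusted p = 0.0741) and rho = 0.690 (permutation p = 0.0694, adjusted p = 0.227), and r was 0.764 (permutation p = 0.0681) without the 2 farthest libraries on Fabp3. Both pairs fell short of the threshold after adjustment.

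Pdk4 and Ucp3 had r = 0.845 (exact permutation p = 0.0116, adjusted p = 0.0741) and rho = 0.738 (permutation p = 0.0458, adjusted p = 0.207). Without MI replicates 1 and 4, the farthest on Pdk4, r was 0.739 (permutation p = 0.0889). Acsl1 and Pdk4 had r = 0.780 (permutation p = 0.0113, adjusted p = 0.0741) and rho = 0.833 (permutation p = 0.0154, adjusted p = 0.185). Their r was 0.657 (permutation p = 0.143) without MI replicates 1 and 4, the farthest on both genes. Lpl and its inhibitor Angptl4 had r = 0.798 (permutation p = 0.0170, adjusted p = 0.0875) and rho = 0.762 (permutation p = 0.0368, adjusted p = 0.207), and r = 0.657 (permutation p = 0.172) without the 2 farthest on Lpl. Lpl and Slc27a1 had r = 0.898 (permutation p = 0.0124, adjusted p = 0.0741) and rho = 0.786 (permutation p = 0.0279, adjusted p = 0.201). That relation rested on MI replicate 1 and Sham replicate 6, since without them r was 0.149 (permutation p = 0.765). Lpl and Pdk4 had r = 0.745 (permutation p = 0.0280, adjusted p = 0.117) and rho = 0.833 (permutation p = 0.0154, adjusted p = 0.185). Without the 2 farthest on Lpl their r was 0.614 (permutation p = 0.172). Ucp3 and Angptl4 had r = 0.745 (permutation p = 0.0294, adjusted p = 0.117), and 0.537 (permutation p = 0.278) without the 2 farthest on Ucp3.

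**Figure D4:**
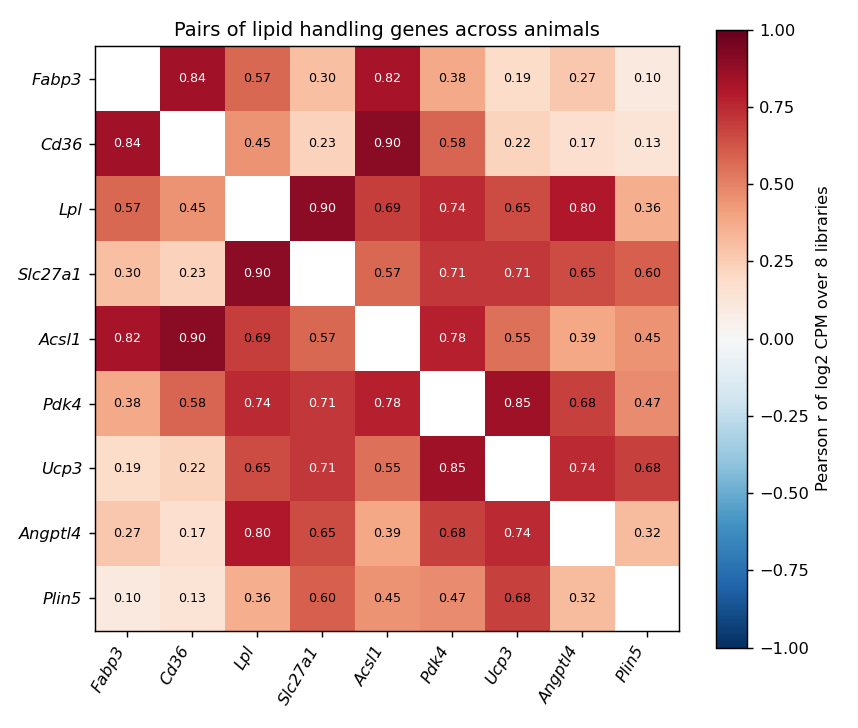
Pearson's r of log2 CPM over the 8 libraries for each pair of the 9 genes (rows and columns), coloured from -1 (blue) to 1 (red). All 36 pairs are above 0 with all 8 libraries kept, and Cd36 with Acsl1 (0.90) is the highest. Some pairs fall below 0 without the libraries farthest from the median.

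The genes whose level most resembled each member over the 8 libraries were searched among 6626 tested genes with a mean of at least 10 CPM, by Pearson's r as a measure of likeness. For Acsl1 the nearest was Slc25a20, the carnitine-acylcarnitine carrier (r = 0.952), which is itself in the list of other PPAR targets. For Cd36 it was Fam188a (r = 0.967), followed by Dld, a subunit of the pyruvate dehydrogenase complex (r = 0.951). The nearest to Fabp3 was Coq10a, which acts with coenzyme Q (r = 0.973), and the nearest to Pdk4 was Gpcpd1 (r = 0.912), followed by Pex11a, a peroxisomal membrane protein gene (r = 0.910). Lpl came closest to Pigy (r = 0.930) and Slc27a1 to Elac2 (r = 0.935). Ucp3 came closest to Ddah2 (r = 0.967), Angptl4 to Eml4 (r = 0.966) and Plin5 to Urgcp (r = 0.963). Each value is the highest or the next highest of 6626 over 8 libraries and describes likeness only.

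Of 16 tested PPAR receptors, partners and coregulators, 0 passed in edgeR, and 1 higher and 1 lower gene had an unadjusted p under 0.05, beside 3.67% higher and 4.47% lower of all tested genes. Pparg, the receptor best known from fat cells, was at 6.81, 8.37, 8.04 and 11.6 CPM in MI and at 7.24, 5.21, 6.86 and 5.90 CPM in Sham. Its log2 fold change was 0.45 ± 0.19 (edgeR adjusted p = 0.601). Rxra, a retinoid X receptor that pairs with PPARs, averaged 4.47 ± 0.595 CPM in MI and 6.26 ± 0.868 CPM in Sham, with -0.49 ± 0.17 on the log2 scale (edgeR adjusted p = 0.601). Ppara and Ppard, the receptors best known from muscle, had -0.14 ± 0.12 and -0.14 ± 0.20. The coactivator gene Ppargc1a had -0.05 ± 0.11 and Lpin1, a phosphatase that also works as a coactivator, -0.32 ± 0.20. The median of the list was -0.051, and it was -0.13 without MI replicate 2, -0.11 without Sham replicate 6 and -0.00069 without Sham replicate 8.

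No other PPAR target gene passed the test. Of 26 tested, 14 lay above 0 and 12 below, with a median of 0.018 on the log2 scale and 0 past the threshold in edgeR. Cpt1b, the muscle gate for fatty acids into mitochondria, averaged 430 ± 73.9 CPM in MI and 438 ± 6.98 CPM in Sham. MI replicate 1 was again the lowest, at 323 CPM. Hadhb (0.17 ± 0.10) and Ech1 (0.19 ± 0.12), both of beta oxidation, and the peroxisomal catalase gene Cat (0.15 ± 0.07) fell short of the threshold. Cat was the 1 target whose groups did not overlap, at 940 to 1092 CPM in MI and 877 to 936 CPM in Sham, beside 2.09% of all tested genes with MI higher. Ucp2, a carrier related to Ucp3, had 0.02 ± 0.20.

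Genes of uptake, lipase handling and storage beyond the 9 did not pass the test either. Of 15 other uptake, binding and activation genes tested, 10 lay above 0 and 0 passed in edgeR, with a median of 0.078 that ran from 0.05 to 0.15 without 1 library. Acsl4, a ligase that favours arachidonic acid, had 0.32 ± 0.15, Fabp4, the binding protein of fat and capillary cells, 0.26 ± 0.18, Vldlr, a lipoprotein receptor, 0.14 ± 0.09 and Lrp1 -0.16 ± 0.14. Of 7 partners and inhibitors of the lipase tested, 5 lay below 0, with a median of -0.16. Gpihbp1, which holds the lipase on the capillary wall, averaged 22.7 ± 10.9 CPM in MI and 20.2 ± 6.80 CPM in Sham (log2 fold change 0.15 ± 0.38). Lmf2, related to a lipase maturation factor, was the 1 gene of this list whose MI values (9.45 to 10.66 CPM) all lay below Sham (10.68 to 13.6 CPM). The highest MI and lowest Sham values were thus almost equal. Its log2 fold change was -0.30 ± 0.12, with an edgeR adjusted p of 0.601. Groups lay apart in that direction for 2.46% of all tested genes. Sel1l, Pcsk6 and the sparse Lipg had -0.16 ± 0.12, -0.17 ± 0.12 and -0.78 ± 0.69.

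Of 18 other lipid droplet and storage genes tested, 8 lay above 0 and 10 below, with a median of -0.029 and 0 past the threshold in edgeR. Plin2, the perilipin found in nearly every tissue, averaged 100.4 ± 11.3 CPM in MI and 102.1 ± 12.4 CPM in Sham, with a log2 fold change of -0.02 ± 0.11. This stood beside -0.47 ± 0.29 for Plin5, whose wider interval holds that value. Agpat9 and Bscl2, which act in triglyceride and droplet formation, and Lpin2 had -0.34 ± 0.25, -0.18 ± 0.13 and -0.25 ± 0.13.

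Around Pdk4, the pyruvate dehydrogenase complex with its kinases, phosphatases and the pyruvate carriers had 10 of 13 tested genes above 0 and a median of 0.11, with 0 past the threshold in edgeR. The median was 0.01 without MI replicate 4, 0.03 without Sham replicate 6 and 0.05 without Sham replicate 7. Pdk2, the more constant kinase of muscle, averaged 529 ± 52.6 CPM in MI and 544 ± 28.6 CPM in Sham (log2 fold change -0.04 ± 0.09). The highest Pdk2 library was at 602 and the lowest at 478 CPM, far closer together than those of Pdk4. Mpc1 and Mpc2, which bring pyruvate into mitochondria, had 0.22 ± 0.09 and 0.14 ± 0.08, and the enzyme subunit genes Pdhb and Dld 0.12 ± 0.08 and 0.11 ± 0.08.

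Pdk4 and Angptl4 are also raised by glucocorticoids, and a list of glucocorticoid and fasting responsive genes lay lower in MI as a description. Of 20 tested, 17 were below 0 with a median of -0.25, and 5 had an unadjusted p under 0.05 in the lower direction, beside 4.47% of all tested genes. In 3 of them the groups did not overlap, beside 2.46% of all tested genes. The list was drawn up with earlier results of these data known, so its counts are not independent evidence. Zbtb16, a glucocorticoid-responsive transcription factor, averaged 33.9 ± 8.32 CPM in MI and 69.2 ± 10.8 CPM in Sham (edgeR adjusted p = 0.518), and the muscle ubiquitin ligase gene Trim63 239.9 ± 8.17 CPM in MI and 329.9 ± 19.1 CPM in Sham (edgeR adjusted p = 0.286). Fkbp5, a chaperone of the glucocorticoid receptor, was at 10.9, 13.9, 11.6 and 12.7 CPM in MI and at 25.2, 19.1, 41.6 and 12.8 CPM in Sham (edgeR adjusted p = 0.601), and Nr4a1 had -0.45 ± 0.18. No gene of the list passed. Pdk4 and Angptl4, at -0.10 ± 0.48 and -0.15 ± 0.59, had intervals too wide to place them with or apart from it.

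**Figure D5:**
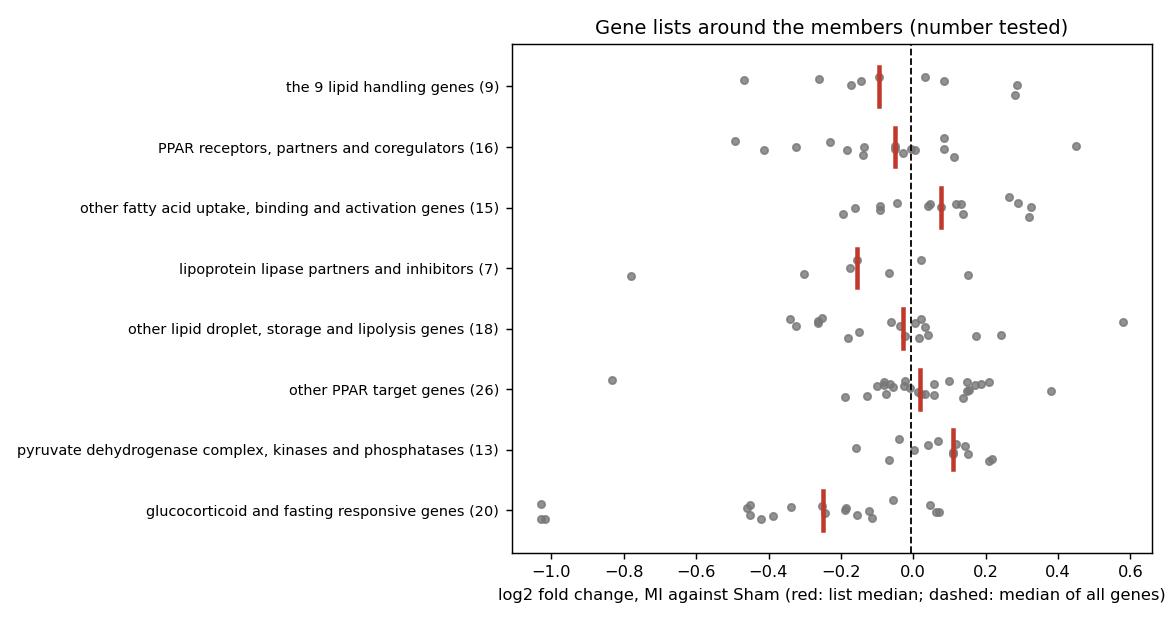
Log2 fold change of MI against Sham (x axis) for every tested gene (grey points, spread vertically at random) of 8 gene lists (rows, number tested in brackets), with the list median in red and the median of all genes dashed. The medians lie between -0.25 for glucocorticoid and fasting responsive genes and 0.11 for the pyruvate dehydrogenase list.

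Cd36, Lpl, Acsl1 and Angptl4 are also transcribed in fat cells, and Cd36 and Lpl in capillary cells or macrophages, so markers of those cells are set beside them. In bulk tissue, fewer cells of a type and less RNA per cell cannot be told apart. Of 13 tested white adipocyte markers, 10 lay above 0 and 0 passed in edgeR, and Adipoq, the fat cell hormone gene, was at 20.8, 14.2, 55.0 and 100.2 CPM in MI and at 26.1, 52.0, 36.4 and 14.6 CPM in Sham. MI replicate 4, the highest library for 6 of the 9 members, was also the highest for 11 of the 15 adipocyte rows, Adipoq, Cidec, Plin1, Retn and Fabp4 among them. The other 4 peaked elsewhere, Lep in Sham replicate 7, Car3 in Sham replicate 6, Thrsp in Sham replicate 5 and Cebpa in MI replicate 3. The summed level of the 15 adipocyte rows was 3248 to 5056 CPM in MI and 3580 to 5326 in Sham, most of it from Car3, which muscle also makes. Without Car3 it was 356.7, 371.3, 442.7 and 671.4 CPM in MI and 441.8, 410.2, 418.4 and 305.0 in Sham, highest in MI replicate 4, and Adipoq, Plin1, Cidec, Lep, Retn and Fabp4 had counts in every library. Cidec had 0.58 ± 0.57, Pck1 0.91 ± 0.84 and Plin1 0.24 ± 0.43. Without MI replicate 4 the log2 fold change was 0.12 for Cd36, 0.20 for Fabp3, 0.01 for Acsl1, -0.06 for Lpl, -0.46 for Pdk4 and -0.65 for Angptl4. That library was the highest for all 6, so leaving it out lowers each of them whatever cells the RNA came from. The part of fat cell RNA in these values was not tested.

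Endothelial markers summed to 430 to 611 CPM in MI and 482 to 605 in Sham, with 7 of 13 tested genes above 0 and 0 past the threshold in edgeR. MI replicate 1, the library lowest for 7 members, had the lowest endothelial sum as well. Emcn had 0.30 ± 0.12, Aqp1 -0.35 ± 0.13, Egfl7 -0.31 ± 0.15 and Cldn5 -0.23 ± 0.14. Macrophage markers summed to 146 to 297 CPM in MI and 163 to 388 in Sham, where the highest was Sham replicate 7, the library with the most Ucp3 and Plin5. Of 11 tested, 2 lay above 0, with Cd163 at -0.75 ± 0.31, C1qa at -0.71 ± 0.36, Mrc1 at -0.28 ± 0.21 and Csf1r at -0.23 ± 0.20. Of the 12 macrophage rows, Marco was at 0 in every library. Their part in the members' values was not tested.

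Red blood cell genes lay further apart between the groups than any member did. Their sum was 368.4, 527.2, 657.2 and 805.3 CPM in MI and 257.8, 255.0, 235.6 and 378.2 CPM in Sham. All 6 tested had an unadjusted p under 0.05 with MI higher, beside 3.67% of all tested genes, and a median of 1.10 on the log2 scale, and 0 passed after adjustment in edgeR. Hba1, Hba2, Hbb-b1 and Alas2 had 1.10 ± 0.24, 1.08 ± 0.24, 1.11 ± 0.25 and 1.10 ± 0.26, and reads of the globin copies, which are nearly alike, may have been divided among them. Their part in the values of the 9 genes was not tested.

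Oxidative fibres are known to hold more Fabp3, Cd36 and Plin5, so fibre type genes are set beside them, and their part in the members' values was not tested. Slow and oxidative fibre genes summed to 33452 to 37462 CPM in MI and 31591 to 38857 CPM in Sham, with a median difference of 0.0050 on the log2 scale over 11 tested genes. Fast fibre genes summed to 72822 to 113127 CPM in MI and 79988 to 119427 CPM in Sham, with a median of -0.11 over 16, and neither list had a gene past the threshold in edgeR. Myh7, the slow myosin heavy chain, had -0.40 ± 0.21, and Myl2, Myl3 and Tnnc1 of slow fibres 0.21 ± 0.09, 0.11 ± 0.12 and 0.15 ± 0.11. Atp2a1, Casq1, Mybpc2 and Pfkm of fast fibres had -0.26 ± 0.19, -0.16 ± 0.14, -0.32 ± 0.27 and -0.14 ± 0.11. General muscle markers had 10 of 12 genes below 0 and a median of -0.14, with Actn2 at -0.19 ± 0.13, Des at -0.14 ± 0.13 and Myod1 at -0.42 ± 0.28. MI replicate 1 was the lowest of the 8 libraries for Myh7, at 2282 CPM, as for most of the members.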

How the data were processed

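Diaphragm RNA of 8 rats was isolated with TRI Reagent and made into libraries with a SMARTer ultra-low-input kit then a KAPA Hyper preparation, as the labels' protocols state. The authors deposited raw whole read counts with gene symbols as rows and animals as columns. The submitters' processing notes name bcl2fastq, STAR 2.5.0a, TopHat2, TopHat, Cufflinks and build rn5. Which program and annotation gave the counts is not given in the sources used here, so reads of overlapping genes may not be told apart. Every column belonged to a labelled animal.

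Groups came from the labels, which give no pairing. Differential expression was tested with edgeR 4.0.16 under R 4.3.3 (TMM, filterByExpr, robust quasi-likelihood F test, two-sided, Benjamini-Hochberg over 10522 genes, threshold 0.05). The SE is the log2 fold change over the square root of F, and intervals are 95%. The median SE was 0.145. The edgeR p-values weigh the difference between groups against the spread between animals. Permutation p-values concern the relation of a pair of genes over the animals. Correlations used log2 CPM and all 40320 pairings. Scripts were tested on simulated data.

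The 9 members and 14 lists were chosen with earlier results of these data known. Named genes are the members, 13 fixed regulators and markers, up to 4 genes with the smallest p per list, and the likeness genes, of which the first or the first 2 per member are named. Of the genes this rule names, 2 are not reported here. Of the listed genes, 10 had no row, and 2 matched an older symbol. Fold changes with 1 library removed, given in brackets, were picked once their values were known. The alternatives comprised RLE size factors, library totals, 2 other filters on low counts, DESeq2 1.42.0, limma-voom (limma 3.58.1), the animal number range as a term, a prior count of 0.5 and each library left out. The adipocyte sum without Car3 was added after seeing the data. No transcript lengths were used, so levels are not compared between genes.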

Additional observations from a re-analysis of the deposited data

Results flagged for a closer look

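Slc27a1 in MI replicate 1 stood far from the other MI libraries at 17.76 CPM. Its gap to the nearest of them was 0.891 of the range of the group, above Dixon's critical value for 4 libraries. Of 18 groups examined, 2 for each of the 9 genes, this was the 1 with such a library, and chance alone gives about 1 in 20.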

How the results depend on the processing

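No member passed the threshold in edgeR under any alternative, in DESeq2 or in limma-voom. Fabp3, Cd36, Acsl1, Ucp3 and Plin5 kept their sign throughout, and all 9 did when the range of animal numbers was added to the model, at 0.26 for Fabp3, 0.27 for Cd36 and -0.50 for Plin5. Signs turned for Lpl without MI replicate 4 (-0.06397) or Sham replicate 6 (-0.06179), for Slc27a1 without MI replicate 1 (0.0278), for Pdk4 without MI replicate 1 (0.1955) or Sham replicate 5 (0.1531), and for Angptl4 without MI replicate 1 (0.1361), MI replicate 2 (0.1327) or Sham replicate 7 (0.2046). Over all genes DESeq2 called 9 higher and 6 lower where edgeR called 0 and 0, and the cause was not tested. At an unadjusted edgeR p under 0.05 there were 386 higher and 470 lower genes, 308 lower with that range in the model. With 1 library left out these counts ran from 208 to 461 higher and from 306 to 629 lower, lowest without Sham replicate 7 in both directions, with 254 higher without MI replicate 4. Past the threshold there were 0 to 1 higher, the 1 without MI replicate 1 or MI replicate 3, and 0 lower. Among the 36 pairs of members, 0 to 2 passed with 1 library left out, the 2 without MI replicate 1, and 1 with a prior count of 0.5 or RLE size factors. The medians of lipid storage genes (0.026 without Sham replicate 7), other PPAR targets (-0.046 without MI replicate 4), adipocyte, endothelial, macrophage and both fibre type lists changed sign with at least 1 library left out. Without 1 library the log2 fold change ran from -0.06397 to 0.1347 for Lpl, from -0.3368 to 0.0278 for Slc27a1, from -0.4601 to 0.1955 for Pdk4 and from -0.6452 to 0.2046 for Angptl4. No paired analysis was possible because the labels give no pairing of MI with Sham animals. With 4 animals a group, the intervals of Pdk4, Ucp3 and Angptl4 include folds above 1.5 in either direction.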
